A study of Mus musculus with 12 samples.

Results

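The data compared here are gene expression values of C2C12 cells kept in low glucose and C2C12 cells kept in galactose. The genes described are the loci of the deposited gene-level comparison table that the authors' software could test between these media, which were 14495 of 26271 loci. C2C12 is an established mouse myoblast line whose cells divide in serum and can fuse into myotubes when serum is withdrawn. Every culture had DMEM with 1 mM pyruvate, 10% fetal bovine serum and 1% antibiotic for 24 h. The low-glucose group had 5 mM glucose and the galactose group had 10 mM galactose in its place, with 4 RNA-seq libraries in each. A high-glucose group, with 25 mM glucose and 4 libraries, completes the 12 libraries of the series, and its values are given beside the others for reference. The series' design text speaks of single muscle stem cells, whereas every sample label names C2C12 cells, and the labels were followed. Nothing in the labels shows that a group's 4 libraries are separate cultures, so the p-values measure only the spread between these libraries, which may be technical.

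Galactose enters metabolism through the Leloir pathway, which phosphorylates it, exchanges it onto a UDP carrier and delivers glucose 1-phosphate. The route is slow in most cultured cells, and myoblasts given galactose in place of glucose are known to draw more of their ATP from mitochondrial respiration than from glycolysis. Sugar phosphates are sensed by MondoA and Mlx, which activate Txnip. Shortage of amino acids and mitochondrial stress act through the factor ATF4, oxidants and electrophiles through NRF2, and low membrane sterol through SREBP2.

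The table gives 1 pooled FPKM value per group and locus (fragments scaled to transcript length and to the mapped fragments of a library), so no SD can be given and the replicate spread enters only through the authors' Cuffdiff test. A locus was called when the q in the authors' deposited table was below 0.05. Changes are log2((galactose + 1)/(low glucose + 1)), a scale with a pseudocount of 1 FPKM that understates the change of low genes. A bare signed number in brackets after FPKM values is this log2 change from low glucose to galactose, and folds, where given, are ratios of the FPKM values themselves. The depth of the libraries is not given in the table, and no counting interval can be attached to a value. In RNA pooled from a whole culture, fewer cells of a type and less RNA per cell cannot be told apart.

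The label was checked against marker genes. All 8 myoblast markers were present in both media, with a summed level of 637 FPKM in low glucose and 519 FPKM in galactose. Of these, 7 were called lower in galactose and 1 higher. Desmin (Des) stood at 308 and 268 FPKM and Myod1 at 108 and 71.5 FPKM. All 7 endothelial markers were under 0.2 FPKM in both media, with Cldn5 and Emcn at 0, and of the 7 macrophage markers Ptprc, Csf1r and Lyz2 were under 0.1 FPKM and Emr1 at 0. The macrophage sum of 102 FPKM in low glucose and 105 in galactose came almost wholly from a locus that joins Cd68 with Eif4a1, a translation factor gene (95.95 and 98.6 FPKM), and from Cd14 (6.12 and 6.47). These 2 loci were the only tested ones of that list, and Cuffdiff called 0 of them, with 0 at an unadjusted p below 0.05. Among 9 fibroblast markers Lum, Tcf21 and Thy1 were at 0 in both media, and the summed level was 100.1 FPKM in low glucose and 86.9 FPKM in galactose, mostly from a locus that joins Ly6a with Ly6c1. Smooth muscle and pericyte markers summed to 1383 and 1285 FPKM, nearly all from Acta2 (844 and 824, not called) and Tagln (506 to 429.5, called lower), which encode smooth muscle actin and transgelin, while Myh11 and Rgs5 were near 0. Of the 5 tested in that list, 1 was called higher and 1 lower. Osteoblast and chondrocyte markers summed to 50.7 and 44.6 FPKM, mostly from Sox9 (25.8 and 25.6) and Runx2, with Ibsp and Acan near 0. Adipocyte markers summed to 24.6 and 24.8 FPKM, mostly from Pparg (17.9 and 17.04), with Plin1 and Cfd at 0 and 1 of 4 tested, Lpl, called higher.

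Of the 14495 tested loci, 4833 (33.3%) were called, 2515 (17.4%) higher and 2318 (16.0%) lower in galactose. Most called changes were small, with a median absolute log2 change of 0.29, and the median over all tested loci was 0.01. From the 5th to the 95th percentile the tested loci spanned -0.42 to 0.44. A called change of at least 2-fold on the pseudocount scale was seen upwards at 77 loci (0.531%) and downwards at 44 loci (0.304%). Among loci averaging at least 100 FPKM, 353 were called higher and 112 lower of 1168 tested. The summed FPKM of all loci was also higher in galactose (617537) than in low glucose (582498). How far this difference in scale enters the small rises of abundant genes was not tested. The authors' deposited table gave 2241 of these tests its lowest p of 5e-05, with a q of 0.000239, so genes in that set cannot be ranked by p. Loci that hold several gene symbols made up 466 of the tested loci, and 2706 carried no symbol. A few abundant genes have many near-identical copies in the genome and are listed very low, among them Gapdh at 0.825 and 0.949 FPKM and Rps2 at 2.06 and 2.83 FPKM. How the authors' counting split shared fragments is not given in the sources used here, and values of such genes are uncertain.

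**Figure D1:**
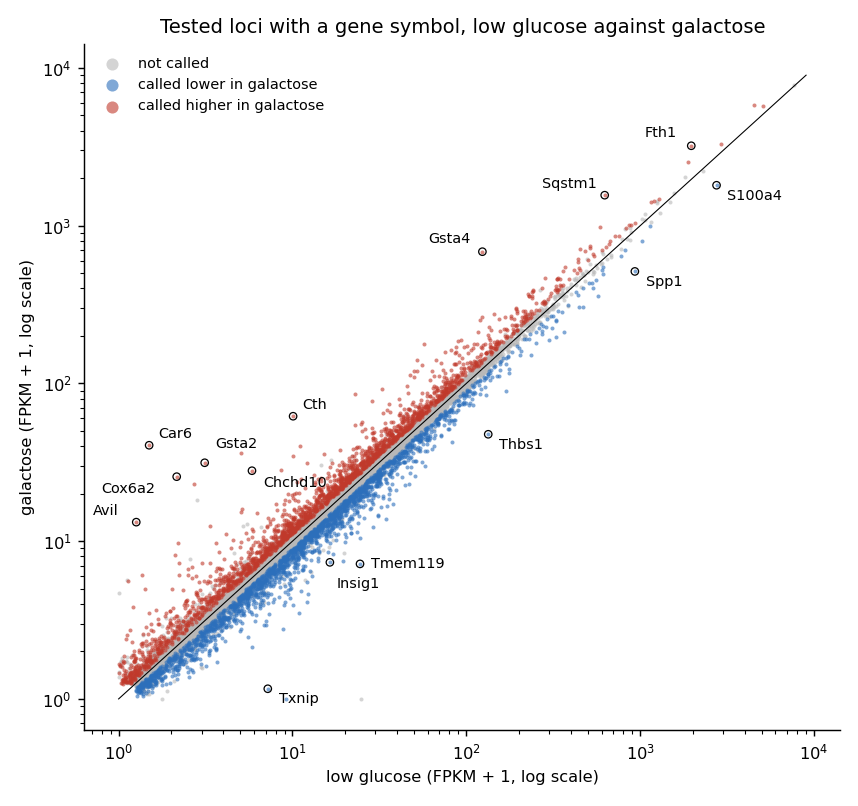
Each point is 1 tested locus with a gene symbol, placed by its group FPKM plus 1 in low glucose (x axis, log scale) and in galactose (y axis, log scale), coloured by call, with the line of equal values. Car6 lies far above the line at 0.498 and 39.6 FPKM, Txnip far below it at 6.21 and 0.16 FPKM, and most called loci lie close to it.

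The largest rises were in genes that were nearly silent in glucose. Car6, a secreted carbonic anhydrase (mm10 chr4:150187016-150201135), stood at 0.0299 FPKM in high glucose, then 0.498 in low glucose and 39.6 in galactose, a log2 change of 4.76 from low glucose to galactose. Cox6a2, the heart and skeletal muscle isoform of a cytochrome c oxidase subunit (chr7:128173946-128206366), went through 0.175, 1.16 and 24.6 FPKM, a log2 change of 3.57. Avil, an actin-binding protein of the villin family, had 0.17, 0.263 and 12.2 FPKM in the same order (3.39). In these genes the glucose groups were both near 1 FPKM or under it, and galactose stood far above both. Car6 and Cox6a2 already stood higher in low than in high glucose by the authors' Cuffdiff test (q = 0.00249 and 0.000239). Avil, at 0.17 and 0.263 FPKM, had no call between the 2 glucose groups, where it may not have been tested.

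The glutathione transferases of the alpha class, which conjugate glutathione to electrophiles such as lipid aldehydes, formed another set of large rises. Gsta4 was the most abundant of them, with 113 FPKM in high glucose, then 123 in low glucose and 683 in galactose, a fold of 5.57 between the last 2. Gsta2 went from 2.13 to 30.4 FPKM (3.33) and Gsta1 from 1.71 to 21.9 FPKM (3.08). Gsta1, Gsta2 and the neighbouring Gm3776 on chromosome 9 are close copies of each other, so how their reads divide is uncertain. High and low glucose were nearly equal for all of Gsta1, Gsta2 and Gsta4.

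Other genes among the 15 largest rises, like Car6 and Cox6a2, already stood higher in low than in high glucose. Cth, cystathionine gamma-lyase, which makes cysteine (chr3:157894246-157925063), had 1.37, 9.08 and 60.96 FPKM in high glucose, low glucose and galactose (2.62). Cdsn, which encodes the skin adhesion protein corneodesmosin, had 0.731, 4.07 and 35.2 FPKM (2.84). Tpsab1, a mast cell tryptase gene listed at more than 1 locus, had 5.93, 21.8 and 84.7 FPKM at the stronger of them (1.91). Chchd10, a protein of the mitochondrial intermembrane space, had 3.35, 4.85 and 26.97 FPKM (2.26). The rest of the 15 were the ATP-gated channel gene P2rx3 (0.138 to 4.59 FPKM), the calcium pump gene Atp2a3 (1.12 to 7.22), the protease inhibitor gene Slpi (2.37 to 11.4), the cationic amino acid transporter gene Slc7a3 (0.41 to 3.94) and the integrin gene Itgb7 (9.11 to 33.6). Their log2 changes ran from 1.77 in Itgb7 to 2.29 in P2rx3.

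Txnip, the thioredoxin-interacting protein that restrains glucose uptake (chr3:96555768-96566801), had the largest fall. It stood at 10.3 FPKM in high glucose, then 6.21 in low glucose and 0.16 in galactose, 38.8-fold lower in galactose than in low glucose. Tmem119, a membrane protein of bone-forming cells, went from 23.5 to 6.18 FPKM (-1.77). Olfml3, a secreted olfactomedin-like protein, went from 7.77 to 1.78 FPKM (-1.66). Several secreted proteins followed. Thbs1, the matrix protein thrombospondin 1, had 335, 133 and 46.6 FPKM in high glucose, low glucose and galactose. Mgp, matrix Gla protein, had 136, 33.3 and 12.7 FPKM, and Hgf, hepatocyte growth factor, had 22.3, 18.5 and 6.49. The chemokine gene Cxcl12 (23.6 to 9.43 FPKM) and its receptor gene Cxcr4 (27.9 to 11.2) both fell by 1.24 on the log2 scale. Cxcr4 was already lower in low than in high glucose (53.5 FPKM), while Cxcl12 was not (22.5).

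Among genes at 100 FPKM or more in both media, Gsta4 rose most. It was followed by Sqstm1, the autophagy receptor p62, at 624 FPKM in low glucose and 1559.8 in galactose (1.32). Hmox1, heme oxygenase, went from 123 to 264 FPKM (1.10) and Lonp1, a protease of the mitochondrial matrix, from 118 to 251 (1.08). Scpep1, a serine carboxypeptidase, went from 115 to 212 FPKM. Spp1, osteopontin, fell most in this range, from 931 to 512 FPKM (-0.86), after 1306 in high glucose. S100a4, a small calcium-binding protein, fell from 2748 to 1803 FPKM (-0.61), and the water channel gene Aqp5 from 326 to 197 (-0.72). The falls in this range were all under 2-fold, and 4 of the 8 rises were over it.

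The genes were then read in 53 functional lists, whose counts are set against the background of 17.4% higher and 16.0% lower over all tested loci. Some genes sit in more than 1 list. For the 8 functional lists with no locus called lower by Cuffdiff, counting tests with an unadjusted p below 0.05 in the authors' deposited table adds 1 lower locus among the mitochondrial chaperones and none in the other 7.

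**Figure D2:**
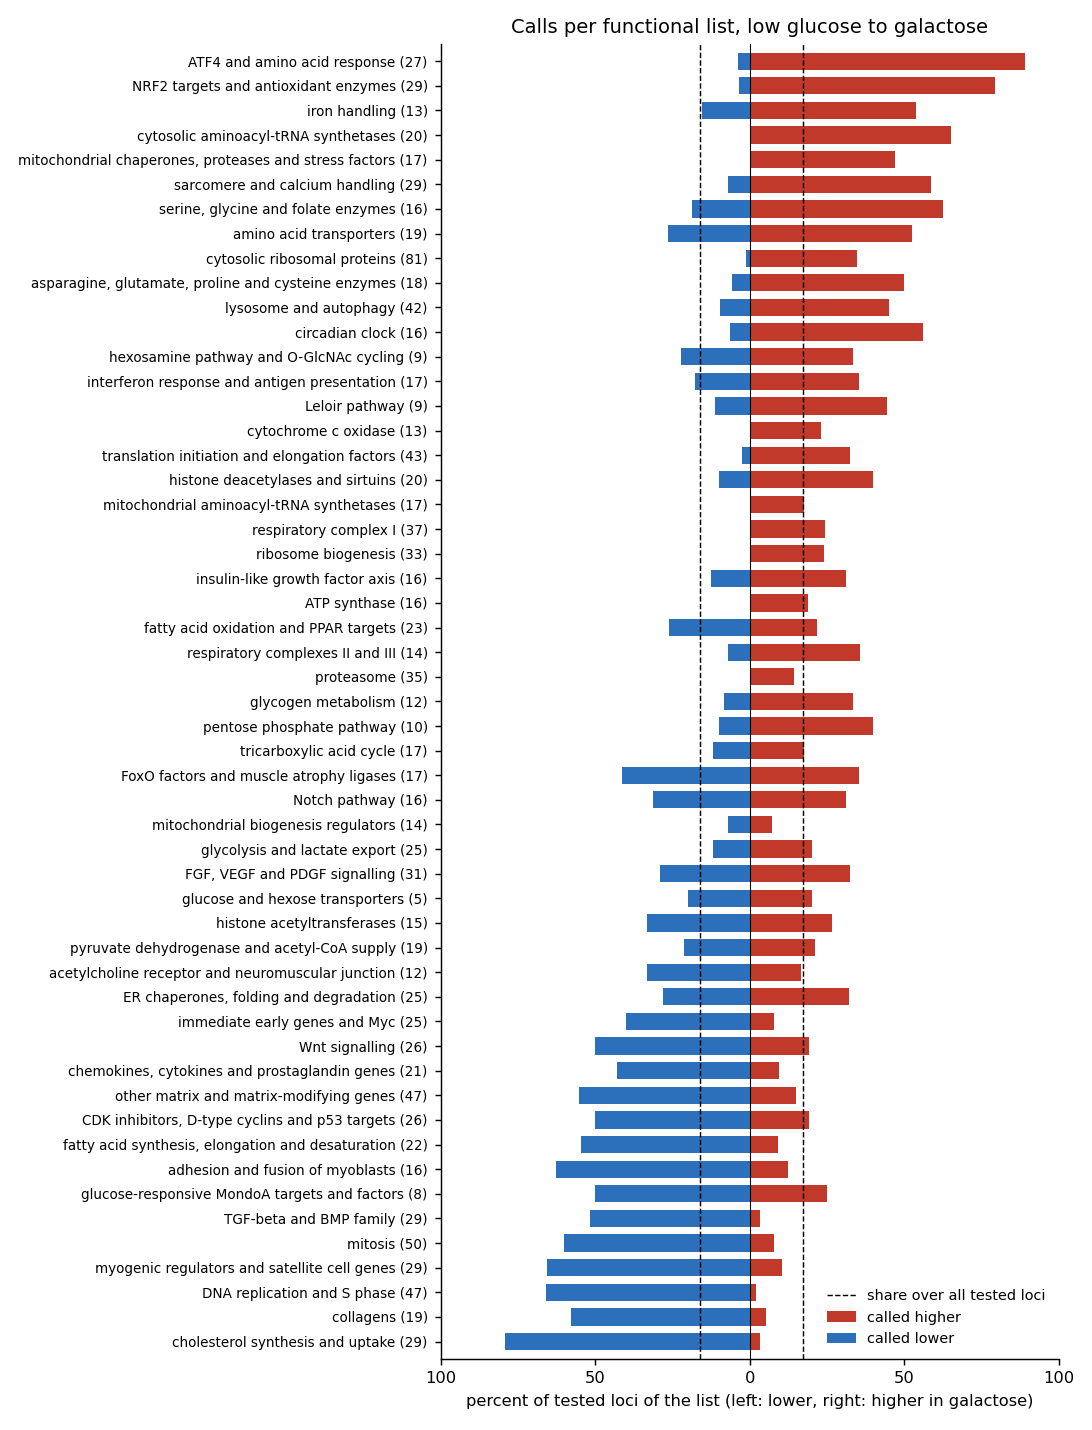
Bars give, for each functional list with its number of tested loci in brackets, the percent of those loci called lower (left) and higher (right) in galactose, and dashed lines mark the shares over all tested loci, 16.0% and 17.4%. Lists are ordered by median log2 change, with the ATF4 list at the top (24 of 27 loci called higher) and the cholesterol list at the bottom (23 of 29 called lower).

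Among hexose transporters 1 of 5 tested was called higher and 1 lower, with a median of -0.05. Of the 25 tested glycolysis loci 17 were not called, a share close to that over all tested loci, of which 33.3% were called. Slc2a1, the main glucose transporter of dividing cells, had 91.2 FPKM in high glucose, then 72.1 in low glucose and 121 in galactose (0.73). Hk2, the inducible hexokinase, had 21.9, 28.2 and 47.3 FPKM (0.72), while Hk1, the more widely expressed hexokinase, was not called at 68.4 and 71.1. The transporter called lower was Slc2a10, at 0.498 and 0.342 FPKM. Of 25 tested loci for glycolysis and lactate export, 5 were called higher and 3 lower, with a median of -0.02. At a q below 0.01 in the authors' deposited table, 3 of the 5 were still called higher. Lactate dehydrogenase A (Ldha) went from 467 to 401 FPKM (-0.22) and the lactate exporter Slc16a3 from 16.6 to 11.5 (-0.49), both lower, while aldolase A (Aldoa) went from 503 to 605 (0.27), higher.

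In the Leloir pathway 4 of 9 tested loci were called higher and 1 lower, and 2 of the 4 were called at a q below 0.01 in the authors' deposited table. Galm, the mutarotase that turns galactose into the form the kinase takes, rose most, with 7.39, 8.57 and 16.9 FPKM in high glucose, low glucose and galactose (0.90). Galk1, galactokinase, was abundant in all media and went from 81.3 to 91.7 FPKM (0.17). Galt, the uridylyltransferase, shares its locus with Il11ra1, and that locus went from 1.78 to 1.25 FPKM (-0.31), called lower. The loci listed as Pgm2 (chr4:99929451-99987294, 36.8 to 49.5 FPKM) and Pgm1 (chr5:64092927-64128410, 23.5 to 26.3 FPKM), named for phosphoglucomutases, were called higher.

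Side branches of glycolysis held several rises. In the pentose phosphate pathway 4 of 10 were called higher and 1 lower. Pgd, which makes NADPH, went from 143 to 273 FPKM (0.93), Tkt, transketolase, from 40.4 to 62.3 (0.61) and Taldo1, transaldolase, from 72.5 to 102 (0.49). In glycogen metabolism 4 of 12 were called higher and 1 lower. The glycogen branching enzyme gene Gbe1 went from 4.93 to 10.6 FPKM (0.96), Stbd1, a glycogen-binding protein, from 40.4 to 71.6 (0.81) and Gys1, the muscle glycogen synthase, from 21.1 to 33.8 (0.66). The brain-type phosphorylase gene Pygb fell from 22.3 to 16.3 FPKM. The enzymes that put O-GlcNAc on proteins and take it off moved apart. Ogt, the transferase, rose from 15.03 to 25.9 FPKM (0.74) and Mgea5, the hydrolase, fell from 10.5 to 8.2 (-0.32).

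Among glucose-responsive genes, 4 of 8 tested were called lower and 2 higher. Besides Txnip these were its relative Arrdc4, at 0.486, 0.384 and 0.0393 FPKM in high glucose, low glucose and galactose, the signalling regulator Rgs16, at 5.82, 8.74 and 4.24, and the factor Klf10, at 27.2, 36.5 and 28.03. The 2 called higher were Tkt and Arrdc3 (3.23 to 3.88 FPKM). The factors themselves were not called, with MondoA (Mlxip) at 5.46 and 5.66 FPKM and Mlx at 14.6 and 14.5, and ChREBP (Mlxipl) was at or near 0 in both. The letters CACGTG, the E-box that the carbohydrate response element is built from, were searched on both strands in RefSeq windows from 250 bases before to 50 after the start (GRCm38.p6, the patched form of mm10). They occur in 7.15% of all 32841 windows, in 11.5% of those of genes called higher, 8.17% of those called lower and 9.96% of those tested and not called. They are in 2 of the 7 list genes with a window (Arrdc4 and Mlx) and in 2 of the 9 largest rises with one (Car6 and Slpi), and the window of Txnip does not hold these letters. The stretches of Arrdc4, which fell, and of Car6, the largest rise, are shown with the match in capitals (minus strand, chr7:68749376-68749481 and chr4:150201229-150201334), since both hold the same 6 letters. A match is a description and not evidence of binding.
Arrdc4: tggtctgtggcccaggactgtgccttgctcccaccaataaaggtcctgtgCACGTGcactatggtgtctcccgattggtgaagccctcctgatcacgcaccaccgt
Car6: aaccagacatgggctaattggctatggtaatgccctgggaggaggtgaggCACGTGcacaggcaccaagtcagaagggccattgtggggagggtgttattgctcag

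Cox6a2 had by far the largest change among cytochrome c oxidase subunits, and the next was 0.26 on the log2 scale. Of 13 tested subunit loci 3 were called higher and none lower by Cuffdiff, with a median log2 change of 0.12. Cox6a1, the ubiquitous isoform of the same subunit, had 608 FPKM in low glucose and 661 in galactose and was not called, so that Cox6a2 stayed far below it. Cox4i1 was called higher at 635 and 736 FPKM (0.21), as was Cox7a2l at 51.4 and 60.9 (0.24). Cox7a1, another isoform of heart and muscle, was not called, at 2.27, 1.37 and 1.18 FPKM in high glucose, low glucose and galactose, and Cox8b, a further one, was under 0.5 FPKM in all 3 media and not tested.

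The other nuclear genes of oxidative phosphorylation changed little. In complex I 9 of 37 were called higher, 5 of them at a q below 0.01 in the authors' deposited table, and none lower, with a median of 0.10. Complexes II and III had 5 of 14 higher and 1 lower, and ATP synthase 3 of 16 higher and none lower, with medians of 0.06 and 0.08. Uqcrq, a small complex III subunit, rose most of these, from 451 to 710.3 FPKM (0.65), and Uqcrh of the same complex fell from 139 to 109 (-0.34). In the tricarboxylic acid cycle list 3 of 17 were called higher and 2 lower, with citrate synthase (Cs) not called at 175 and 173 FPKM. The shares called higher in this list (17.6%) and in ATP synthase (18.8%) were close to the background of 17.4%. Among regulators of mitochondrial biogenesis 1 of 14 was called higher, Ppargc1b (3.81 to 4.7 FPKM), and 1 lower, and Ppargc1a (PGC-1alpha) was under 0.1 FPKM in both media and not tested. The transcripts encoded by mitochondrial DNA were not tested by the authors' software.

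Of 19 tested genes for pyruvate and acetyl-CoA metabolism 4 were called higher and 4 lower, and the largest change was in Pdk4, a kinase that inhibits pyruvate dehydrogenase. Pdk4 had 17.2, 11.1 and 4.5 FPKM in high glucose, low glucose and galactose (-1.14), and Pdk3 fell from 14.9 to 11.7 (-0.31). The catalytic subunit gene Pdha1, at 101 and 101 FPKM, was not called, nor was Pdk1 at 3.43 and 3.15. The other subunit genes Pdhb (28.4 to 34.3 FPKM) and Dld (53.1 to 62.4) were called higher. The acetyl-CoA enzyme Acly, ATP citrate lyase, had 51.8 and 46.8 FPKM and missed the threshold with q = 0.0555 in the authors' deposited Cuffdiff table. Acss2, which makes acetyl-CoA from acetate, fell from 0.996 to 0.676 FPKM, and pyruvate carboxylase (Pcx) rose from 4.65 to 7.04 (0.51). In fatty acid oxidation and PPAR targets 5 of 23 were called higher and 6 lower. Among its called loci with exactly 1 symbol, the lipid droplet coat Plin2 rose most, from 237 to 377 FPKM (0.67). Angptl4 fell from 46.7 to 25.9 FPKM (-0.83) and the uncoupling protein gene Ucp2 from 9.4 to 5.78 (-0.62). The list's highest log2 change, 1.87, lay outside those single-symbol loci.

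Mitochondrial chaperones, proteases and stress factors had 8 of 17 called higher and none lower, with a median of 0.28. Chchd10 and Lonp1 led, and the stress hormone genes Gdf15 (52.5, 85.2 and 155 FPKM in high glucose, low glucose and galactose) and Fgf21 (0.0925, 0.69 and 2.22) came next.

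Genes of the ATF4 and amino acid response were called higher more often than any other list, 24 of 27 tested, with 1 lower and a median log2 change of 0.76. Atf4 itself had 294 FPKM in high glucose, then 437 in low glucose and 585 in galactose (0.42). Trib3, a pseudokinase that feeds back on ATF4, had 5.58, 48.98 and 118 FPKM (1.25). Asns, asparagine synthetase, had 46.2, 134 and 227 FPKM (0.76). In each of these the 3 media stood in the same order, with low glucose between. Vldlr, a lipoprotein receptor, went from 2.03 to 6.26 FPKM (1.26), Aldh1l2, a mitochondrial folate enzyme, from 27.6 to 76.9 (1.44) and the stress factor Atf3 from 4.83 to 9.67 (0.87). The 1 member called lower was Cbs, cystathionine beta-synthase, which acts just before Cth (0.318 to 0.17 FPKM). Jdp2 and Nucb2 were not called.

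The letters TGATGNAA, the core shared by C/EBP-ATF response elements, were searched on both strands in the same windows. They occur in 3.97% of all windows, in 3.73% of those of genes called higher, 2.11% of those called lower and 1.85% of those tested and not called. In the ATF4 list 9 of the 24 genes with a window hold them, and among the 15 largest rises 2 of 9 do, Avil and Chchd10. The Chchd10 locus of the deposited table (chr10:75935414-75940455) begins after the end of the RefSeq window, so that stretch is not shown. The windows below are from genes that rose, with the matches in capitals. Slc7a11 holds 2 matches, on opposite strands at 66 and 47 bases before the start. Positions are chr10:127000642-127000749 (plus strand) for Avil, chr3:50443603-50443729 (minus) for Slc7a11, chr2:152344011-152344096 (minus) for Trib3, chr1:191183386-191183493 (minus) for Atf3 and chr6:7693175-7693282 (minus) for Asns.
Avil: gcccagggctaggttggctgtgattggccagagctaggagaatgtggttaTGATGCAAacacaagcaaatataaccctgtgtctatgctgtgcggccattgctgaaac
Slc7a11: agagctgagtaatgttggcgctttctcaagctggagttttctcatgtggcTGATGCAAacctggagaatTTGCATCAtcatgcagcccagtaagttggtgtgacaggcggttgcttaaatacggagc
Trib3: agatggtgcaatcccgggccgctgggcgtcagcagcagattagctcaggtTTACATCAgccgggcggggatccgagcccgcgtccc
Atf3: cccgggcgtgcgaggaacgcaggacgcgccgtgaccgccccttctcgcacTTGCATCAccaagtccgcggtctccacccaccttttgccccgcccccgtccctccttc
Asns: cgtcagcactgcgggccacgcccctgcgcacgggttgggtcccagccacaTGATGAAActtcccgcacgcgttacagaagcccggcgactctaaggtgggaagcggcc

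Enzymes and transporters that supply amino acids were also called higher more often than lower. Of 16 loci for serine, glycine and folate enzymes 10 were called higher, 6 of them at a q below 0.01 in the authors' deposited table, and 3 lower. Psph, the last enzyme of serine synthesis, had 22.7, 62.7 and 118 FPKM in high glucose, low glucose and galactose (0.91), and Shmt2, the mitochondrial enzyme that splits serine, had 117, 282 and 467 (0.72). For asparagine, glutamate, proline and cysteine 9 of 18 enzymes were called higher and 1 lower, among them the proline enzyme Pycr1 (7.95 to 14.8 FPKM). Amino acid transporters had 10 of 19 called higher and 5 lower, 3 of the 5 at a q below 0.01 in the authors' deposited table. Slc6a9 for glycine went from 23.9 to 54.4 FPKM (1.16), Slc7a11 for cystine from 7.0 to 16.3 (1.11) and Slc1a5 for glutamine from 35.2 to 64.7 (0.86).

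Cytosolic aminoacyl-tRNA synthetases had 13 of 20 called higher and none lower by Cuffdiff, with a median of 0.35. Wars, for tryptophan, rose most, with 45.5, 70.4 and 133 FPKM in high glucose, low glucose and galactose. The enzymes for aspartate (Dars, 68.4 and 68.9 FPKM), lysine (Kars, 116 and 125) and valine (Vars, 134 and 146) were among the 7 not called. Of the mitochondrial synthetases 3 of 17 were called higher, a share close to the background of 17.4%. Cytosolic ribosomal proteins had 28 of 81 called higher and 1 lower, 15 and 0 at a q below 0.01 in the authors' deposited table, with a median of 0.18. They held 4.43% of the summed FPKM in low glucose and 4.86% in galactose. Among translation factors 14 of 43 rose and 1 fell. The largest of these rises was in Eif4ebp1, which restrains cap-dependent initiation, at 268, 588 and 987 FPKM (0.75). The initiation factor gene Eif3c went from 154 to 254 FPKM (0.72) and Eif3f from 119 to 148 (0.31). The kinase gene Eef2k, which slows elongation, went from 11.1 to 16.96 FPKM (0.57). Ribosome biogenesis had 8 of 33 called higher and none lower, with nucleolin (Ncl) at 216 and 274 FPKM.

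NRF2 targets and antioxidant enzymes had 23 of 29 called higher and 1 lower, with a median of 0.61. Besides Gsta4, Sqstm1, Hmox1 and Pgd these included the glutamate-cysteine ligase modifier Gclm, with 33.7 FPKM in high glucose, then 44.7 in low glucose and 95.6 in galactose (1.08). Srxn1, sulfiredoxin, which repairs peroxiredoxins, had 44.1, 48.8 and 109.7 FPKM (1.15). The cystine transporter Slc7a11, given above, belongs to both this list and the amino acid transporters. For Gclm and Srxn1 galactose lay more than 2 times above both glucose groups. Gpx1, a glutathione peroxidase, was the member called lower (155 to 133 FPKM), and Keap1 (25.1 and 24.0 FPKM), Sod1 (249 and 263) and Sod2 (18.5 and 20.1) were not called. The list held 1.14% of the summed FPKM in high glucose, then 1.11% in low glucose and 1.73% in galactose.

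The core of the antioxidant response element, TGACNNNGC, was searched on both strands. It occurs in 12.4% of all windows, in 16.4% of those of genes called higher, 14.3% of those called lower and 14.0% of those tested and not called, and in 9 of the 23 list genes with a window. Those 9 include Sod1 and G6pdx, which were not called, and do not include Gsta4, Sqstm1, Slc7a11 or Hmox1. The stretches of Gclm (chr3:122245373-122245481, plus strand) and Srxn1 (chr2:152105502-152105573, plus) are shown as 2 of the 9 that rose, with the match in capitals.
Gclm: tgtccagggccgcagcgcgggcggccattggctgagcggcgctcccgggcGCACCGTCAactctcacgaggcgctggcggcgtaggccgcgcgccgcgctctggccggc
Srxn1: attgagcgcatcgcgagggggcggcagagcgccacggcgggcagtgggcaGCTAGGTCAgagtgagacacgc

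In iron handling 7 of 13 loci were called higher and 2 lower. Fth1, the ferritin heavy chain, which stores iron, had 2063, 1966 and 3211 FPKM in high glucose, low glucose and galactose (0.71). The mitochondrial iron importer Slc25a37 rose from 28.4 to 48.1 FPKM (0.74). The 2 called lower were the transferrin receptor gene Tfrc (48.5 to 31.1 FPKM) and Ireb2 (10.2 to 8.67), an RNA-binding regulator of iron genes. Ferritin light chain 1 shares its locus with Bax, so its own level cannot be given.

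Cholesterol synthesis and uptake had the highest share called lower of the 53 lists, with 23 of 29 tested loci called lower, 1 higher and a median of -0.65. Hmgcs1, which makes HMG-CoA at the start of the pathway, had 53.5 FPKM in high glucose, then 30.03 in low glucose and 13.6 in galactose (-1.09). Insig1, which holds SREBP in the endoplasmic reticulum and is itself a SREBP target, had 30.8, 15.4 and 6.34 FPKM (-1.16). In both, low glucose lay between high glucose and galactose. Sqle, which oxidises squalene, fell from 58.4 to 36.4 FPKM, and Stard4, a sterol carrier, from 6.33 to 2.48 (-1.08). The list held 0.0987% of the summed FPKM in low glucose and 0.0588% in galactose. The 1 locus called higher joins Tm7sf2 with Vps51, and Scap, the SREBP escort (29.5 and 28.7 FPKM), was not called.

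The sterol element core TCACNCCAC occurs in 1.24% of all windows, in 1.18% of those of genes called higher, 1.48% of those called lower and 1.11% of those tested and not called, and in 1 of the 19 list genes with a window. That gene is Hmgcs1, whose stretch (chr13:119690164-119690272, plus strand) is shown because it carries the match 137 bases before the start.
Hmgcs1: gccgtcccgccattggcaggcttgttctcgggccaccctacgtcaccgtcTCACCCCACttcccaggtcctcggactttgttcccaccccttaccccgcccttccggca

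For fatty acid synthesis, elongation and desaturation 12 of 22 were called lower, 7 of them at a q below 0.01 in the authors' deposited table, and 2 higher. The elongase gene Elovl6 fell from 8.7 to 5.22 FPKM (-0.64), the desaturase gene Fads2 from 38.96 to 25.8 (-0.58) and Fasn, fatty acid synthase, from 67.2 to 54.8 (-0.29). Srebf1, the factor that drives them, had 32.9, 22.02 and 17.9 FPKM in high glucose, low glucose and galactose (-0.28).

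**Figure D3:**
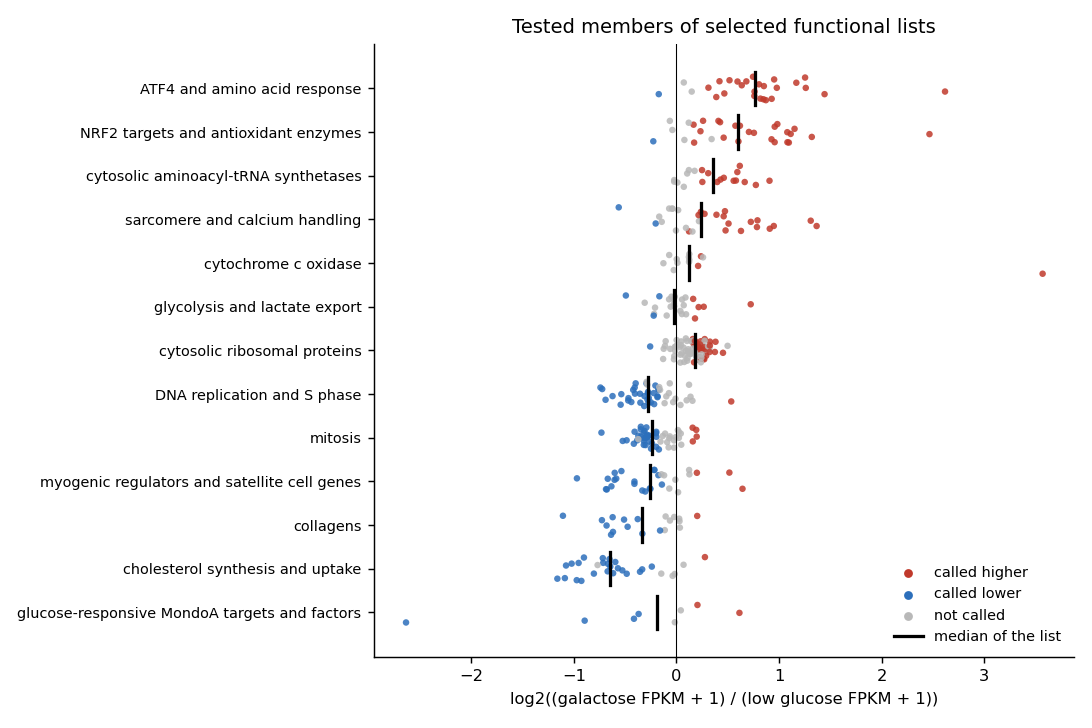
Each point is a tested locus of 1 of 13 functional lists, placed by its log2 change from low glucose to galactose (x axis) and coloured by call, and the bar is the list's median. The ATF4 and NRF2 lists lie mostly to the right with medians of 0.76 and 0.61, the cholesterol list mostly to the left with a median of -0.65, and Cox6a2 lies apart from the other cytochrome c oxidase subunits.

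Myogenic regulators were mostly called lower in galactose, while tested contractile genes were mostly called higher. Of 29 tested myogenic regulators and satellite cell genes 19 were called lower and 3 higher, with a median of -0.25. Myod1, the determination factor of muscle, had 154 FPKM in high glucose, then 108 in low glucose and 71.5 in galactose (-0.59). Pax7, the satellite cell factor, had 11.5, 7.34 and 4.49 FPKM (-0.60), and Myf5, a determination factor active early, had 19.1, 17.6 and 12.98 (-0.41). Each of these was lowest in galactose. The 19 called lower include inhibitors of myogenic factors, namely Msc and the Id genes, among them Id2 from 81.9 to 41.3 FPKM (-0.97) and Id3 from 571 to 359 (-0.67). Myogenin (Myog), which starts differentiation, went the other way between these media, with 3.61, 1.42 and 2.78 FPKM (0.64), so that galactose lay between low and high glucose. The other 2 called higher were the adhesion gene Ncam1 (49.5 to 71.2 FPKM) and the factor Mef2d (39.5 to 45.5).

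Among sarcomere and calcium handling genes 17 of 29 tested were called higher and 2 lower. Acta1, skeletal muscle actin, had 16.1, 11.1 and 30.2 FPKM in high glucose, low glucose and galactose (1.37). Myom2, an M-band protein, had 1.93, 1.02 and 4.0 FPKM (1.31), and Mylpf, a fast myosin light chain, had 12.8, 7.18 and 14.8 (0.95). In all of them low glucose was the lowest of the 3 media. These levels were low beside Des or the tropomyosin gene Tpm1 (564 and 537 FPKM, not called), and Ttn, Neb and Ryr1 were under 0.3 FPKM and not tested. For adhesion and fusion 10 of 16 were called lower and 2 higher. The adhesion receptor gene Cdon fell from 22.6 to 14.4 FPKM (-0.62), and myomaker (listed as Tmem8c), the fusion protein, rose from 1.68 to 2.75 (0.49). Of the acetylcholine receptor and junction genes 4 of 12 were called lower and 2 higher, 2 and 1 at a q below 0.01 in the authors' deposited table. The kinase gene Musk fell from 13.3 to 7.62 FPKM (-0.73).

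Histone acetyltransferases moved both ways, with 4 of 15 called higher and 5 lower. Ep300 (15.2 and 14.6 FPKM) and Crebbp (13.8 and 13.6), the general coactivators, were not called. Kat2a (GCN5) rose from 49.5 to 59.7 FPKM (0.27) and Kat8 from 8.92 to 11.2 (0.29), while Kat2b (PCAF) fell from 3.05 to 2.27 (-0.31). Of the histone deacetylases, sirtuins and NAD enzymes 8 of 20 were called higher and 2 lower. Hdac5 fell from 19.3 to 13.7 FPKM (-0.47) and Sirt1, the NAD-dependent deacetylase, from 6.73 to 5.61 (-0.23). Hdac4 rose from 6.47 to 8.38 FPKM (0.33), Sirt2 from 37.02 to 43.95 (0.24) and Nampt, which makes the NAD precursor, from 14.2 to 17.7 (0.30). Hdac1, at 2.9 and 2.61 FPKM, was not called. All these changes were well under 2-fold.

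**Figure D4:**
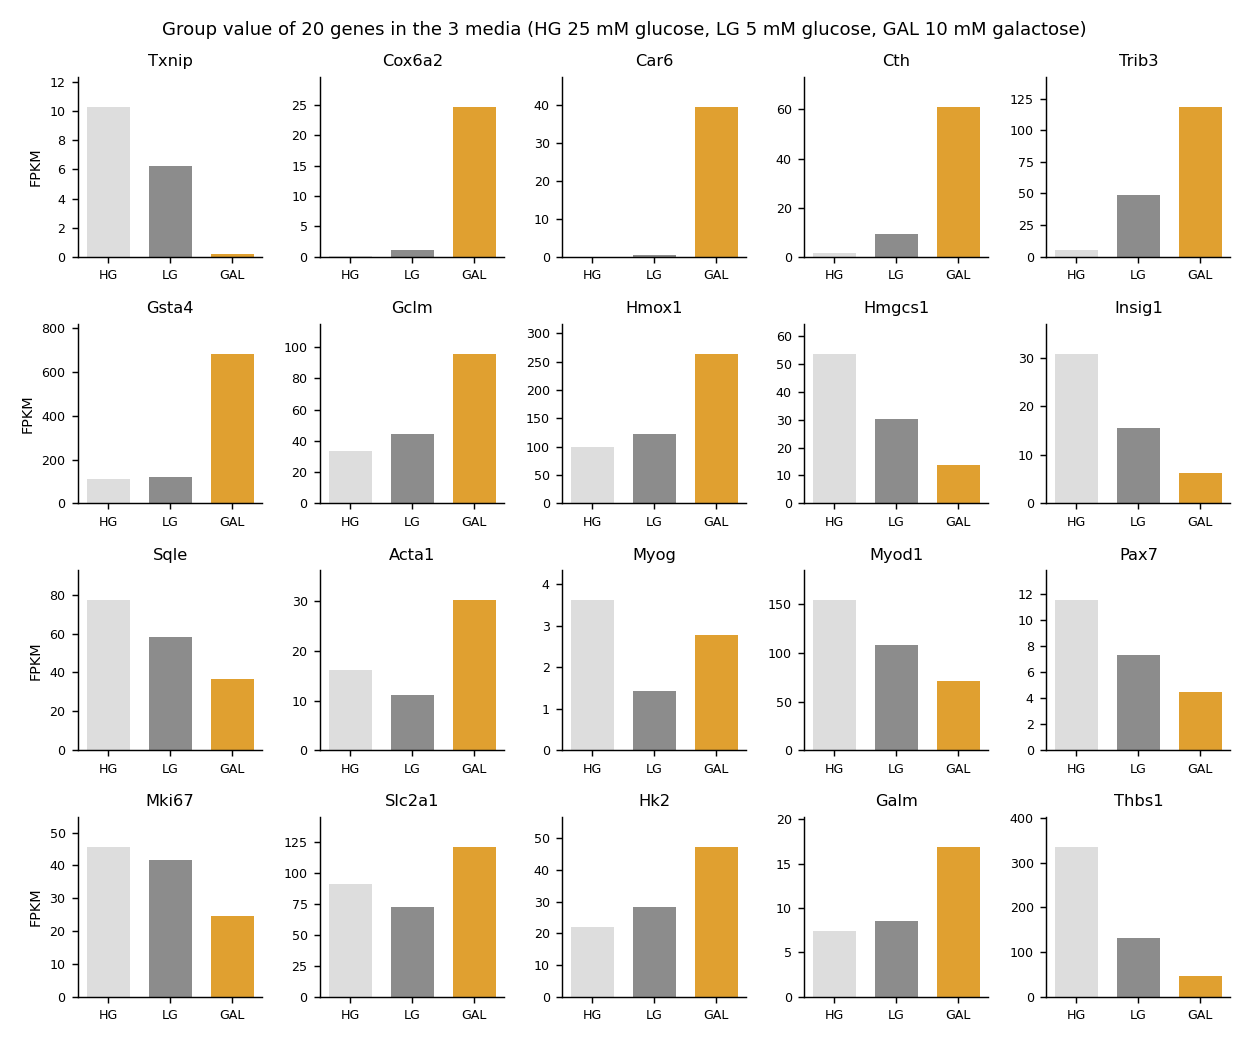
Bars give the pooled group FPKM (y axis, own scale per gene, from 0) of 20 genes in high glucose (HG), low glucose (LG) and galactose (GAL); 1 pooled value stands for 4 libraries, so no error bars can be drawn. Car6 and Gsta4 are highest in galactose, Trib3 and Cth climb and Hmgcs1, Insig1 and Pax7 descend over the 3 media, and Acta1 and Myog are lowest in low glucose.

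Proliferation genes were mostly called lower in galactose, both those of S phase and those of mitosis. For DNA replication and S phase 31 of 47 were called lower and 1 higher, with a median of -0.27. The cyclin gene Ccne1, which drives entry into S phase, had 27.0, 27.6 and 16.7 FPKM in high glucose, low glucose and galactose (-0.69), and the atypical E2F repressor gene E2f7 had 14.7, 13.3 and 7.54 (-0.74). Thymidine kinase 1 (Tk1) fell from 70.9 to 45.7 FPKM (-0.62). Pcna (156 and 149 FPKM) and Mcm2 (98.7 and 109) were not called, and Cdt1, which licenses origins, was the 1 called higher (63.7 to 92.7 FPKM). For mitosis 30 of 50 were called lower, with a median of -0.24, and 4 higher, none of the 4 at a q below 0.01 in the authors' deposited table. Mki67, the proliferation marker, had 45.6, 41.5 and 24.6 FPKM (-0.73), and the kinase gene Aurkb fell from 64.2 to 44.4 (-0.52). Ccnb1 and Cdc20, both of mitosis, were not called, at 24.6 and 25.4 FPKM and 145 and 147 FPKM.

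CDK inhibitors, D-type cyclins and p53 targets did not move as 1 group, with 13 of 26 called lower and 5 higher. Gadd45a, a growth arrest gene, rose most, with 28.8, 56.4 and 178 FPKM in high glucose, low glucose and galactose (1.64). Its relative Gadd45b fell from 20.4 to 11.4 FPKM (-0.78), and Gas1, another arrest gene, from 27.5 to 15.3 (-0.80). Cyclin D2 (Ccnd2) rose from 9.08 to 17.7 FPKM (0.89). Cdkn1a (p21), at 91.4 and 85.3 FPKM, and Ccnd1, at 291 and 282, were not called. Immediate early genes had 10 of 25 called lower and 2 higher, with Egr1 falling from 29.97 to 13.4 FPKM (-1.11).

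Matrix genes were more often called lower than higher. Of 19 tested collagen loci 11 were called lower and 1 higher, with a median of -0.33. Col6a1, of the muscle basement membrane zone, had 27.1, 11.9 and 5.01 FPKM in high glucose, low glucose and galactose (-1.11), and Col12a1, a fibril-associated collagen, had 48.2, 23.0 and 13.5 (-0.73). The basement membrane collagens Col4a1 (84.2 and 82.99 FPKM) and Col4a2 (58.5 and 59.8) were not called. In other matrix genes 26 of 47 were called lower and 7 higher. Tenascin C (Tnc) fell from 57.2 to 28.8 FPKM (-0.96), while fibulin 5 (Fbln5) rose from 6.23 to 12.98 (0.95). Levels of Pdgfrb, 1 of the fibroblast markers, moved with these from 32.2 to 18.3 FPKM (-0.78), while Pdgfra (1.37 and 1.3) and the Ly6a locus (65.9 and 66.4) were not called and Dcn was called higher (0.46 to 0.648). Of the 5 tested osteoblast and chondrocyte markers 3 were called lower and none higher (0 also at an unadjusted p below 0.05 by Cuffdiff), with a median of -0.35. These were Runx2 (22.7 to 16.97 FPKM), Sp7 (0.621 to 0.274) and Col2a1 (0.445 to 0.0893), of which Runx2 alone reached 1 FPKM. Of the smooth muscle and pericyte markers Tagln was called lower, as given above. The part of other cell types in the matrix result was not tested.

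Genes of the TGF-beta, BMP and Wnt families were more often called lower than higher. In the TGF-beta and BMP family 15 of 29 were called lower and 1 higher, among them Bmp4 (5.17 to 2.43 FPKM), the activin chain Inhbb (9.11 to 4.67) and follistatin (Fst, 4.01 to 1.68), an activin and myostatin antagonist. Of 26 Wnt genes 13 were called lower and 5 higher. The secreted Wnt antagonist Sfrp2 had 9.31, 1.55 and 0.376 FPKM in high glucose, low glucose and galactose, and the ligand genes Wnt10a (4.12 to 2.01) and Wnt10b (5.88 to 3.71) fell. Chemokine, cytokine and prostaglandin genes had 9 of 21 called lower and 2 higher. Ptgs2, the inducible cyclooxygenase, was an exception with 18.9, 40.02 and 78.8 FPKM (0.96). In the FGF, VEGF and PDGF list 10 of 31 were called higher and 9 lower, and in the Notch list 5 of 16 each way. The insulin-like growth factor axis had 5 of 16 called higher and 2 lower, with the adaptor gene Irs1 falling from 19.04 to 10.1 FPKM (-0.85) and Igf2 rising from 2.31 to 3.54 (0.46).

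Lysosome and autophagy genes had 19 of 42 called higher and 4 lower, with cathepsin L (Ctsl) at 240.03 FPKM in low glucose and 389.5 in galactose (0.70), cathepsin B (Ctsb) at 193 and 294 (0.60) and alpha-galactosidase A (Gla) at 6.72 and 12.8 (0.84). The factor Tfe3, which drives such genes, was called higher (25.9 to 30.6 FPKM) and its relative Tfeb lower (5.74 to 3.76). The proteasome had 5 of 35 called higher and none lower, 1 of the 5 at a q below 0.01 in the authors' deposited table, a share under the background of 17.4%. FoxO factors and atrophy ligases had 6 of 17 called higher, 3 of them at that stricter q, and 7 lower, and chaperones of the endoplasmic reticulum 8 of 25 higher and 7 lower. Sdf2l1, a chaperone cofactor, fell from 16.7 to 12.7 FPKM, and Derl1, of the degradation channel, rose from 35.8 to 49.3.

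Clock genes had 9 of 16 called higher and 1 lower. The repressor gene Bhlhe40 rose from 26.6 to 38.7 FPKM (0.52), Cry2 from 2.79 to 4.27 (0.48) and the output factor Dbp from 3.8 to 5.65 (0.47). In interferon response and antigen presentation 6 of 17 were called higher and 3 lower. The class I gene H2-K1, which has close relatives in the genome, rose from 40.2 to 62.3 FPKM (0.62), its partner B2m from 219 to 266 (0.28) and Nlrc5, the activator of class I genes, from 0.539 to 1.72 (0.82).

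**Figure D5:**
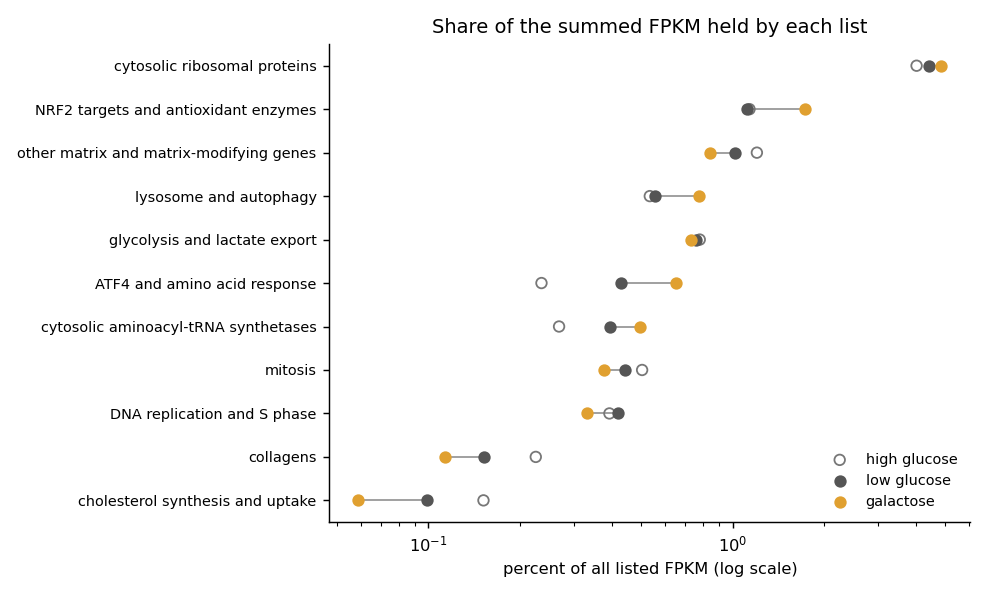
Points give the percent of the summed FPKM of all listed loci (x axis, log scale) held by each of 11 functional lists in high glucose, low glucose and galactose. The NRF2 list moved from 1.11% in low glucose to 1.73% in galactose and the cholesterol list from 0.0987% to 0.0588%, while glycolysis stayed near 0.757%.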

How the data were processed

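PolyA RNA of C2C12 cells was sequenced as 12 libraries, 4 for each of 3 media, per the labels' protocols. TopHat2 2.0.10, Cufflinks 2.2.0, Cuffdiff and the mm10 genome are named in the submitters' processing notes, and their settings are not given in the sources used here. The deposited table holds, per the file headers, 1 FPKM value per group, the authors' log2 fold change, a test score, a p-value and a q-value for each locus and pair of media. The deposited q-value is a Benjamini-Hochberg adjustment over 44006 tests of 3 comparisons, which was recomputed to within 5.26e-07. Depth and values per library are not used here, so the precision of a single value is unknown.

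From the deposited FPKM, log2 changes with a pseudocount of 1 FPKM were computed in Python 3.11.15 with pandas 2.3.3 and numpy 2.4.6, and the scripts were tested on simulated data. Loci with status OK and a q below 0.05 were called. Of 1430 entries of 53 functional and 7 marker lists 1427 were found, 12 of them under another name. A repeated symbol was read at the locus with the highest values. Named were the 15 largest rises and 15 largest falls, up to 4 called members of each list, the 8 largest changes each way at 100 FPKM or more, all members of 6 lists where useful, and a fixed set of metabolic and muscle genes. Genes outside this rule, mostly those not called, the exceptions within a list and marker genes, were picked after their values were seen. Members and lists were chosen with earlier results of these data known. Promoter windows came from RefSeq (GRCm38.p6). Alternatives were another q threshold, another adjustment, a minimum level, single-symbol loci, other pseudocounts, a rescaling and a re-centring.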

Additional observations from a re-analysis of the deposited data

How the results depend on the processing

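No paired analysis was possible because the table holds 1 pooled value per group, and for the same reason no library could be left out in turn. Calls rest on the authors' test alone, and depth is unknown. None of the calls among the named genes, of which 304 to 321 had a value under each of the 8 alternatives run, changed direction. Most of these alternatives could not have changed a direction. Thresholds, adjustment and filters reuse the same log2 change, and a pseudocount cannot turn its sign. The rescaling and the re-centring shifted the median log2 change by only -0.08 and -0.01. Counts of called loci stayed within 1.5 times the reported ones: a q below 0.01 gave 1829 higher and 1689 lower, and an adjustment within the single comparison gave 2398 and 2213. The counts of 2-fold changes depend on the pseudocount, since it damps low genes: 0.1 FPKM gave 198 higher and 126 lower, and no pseudocount gave 245 and 169, in place of 77 and 44. Rescaling both groups to the same sum shifted the median log2 change by -0.08 and gave 85 called loci at least 2-fold lower. It also raised all values against the fixed pseudocount, so scaling and pseudocount changed together there. At a q below 0.01, 23 of the 321 genes lost their call and 26 of 120 list counts moved by over 1.5 times. Besides the counts given with the lists, that threshold took the fibroblast, smooth muscle and collagen lists from 1 called higher to 0, interferon genes from 3 lower to 1, and tricarboxylic acid cycle and insulin-like growth factor genes from 2 lower to 1. It took the lists for myoblast adhesion and fusion and for fatty acid synthesis from 2 higher to 1. The Leloir, complexes II and III, mitochondrial biogenesis, translation factor and circadian clock lists went from 1 lower to 0. Loci with exactly 1 symbol left 3 of 5 fatty acid oxidation and PPAR genes called higher.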

Other observations

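Gene families that no list covered as a whole were read by their names after the values had been seen, so their counts are descriptions and carry no test. Some members, among them Gsta4, Aldh1l2 and Rgs16, also sit in the lists above. Over all tested loci 17.4% were called higher and 16.0% lower. Of 31 tested replication-linked histone genes 6 were called lower, a share near the 16.0% over all tested loci, and 0 higher. Chaperonin CCT subunits had 3 of 8 called higher, peroxiredoxins 3 of 5 and aldo-keto reductases 4 of 8, with 0 called lower in each. Counting Cuffdiff tests with an unadjusted p below 0.05 adds 1 lower peroxiredoxin, and none among CCT subunits or aldo-keto reductases. Of 9 tested serpin B genes, which encode intracellular protease inhibitors, 8 were called higher and 1 lower. Serpinb9b went from 50.9 FPKM in low glucose to 119 in galactose (log2 change 1.21), Serpinb9 from 8.08 to 17.1 (1.00) and Serpinb6a, the most abundant, from 333 to 459 (0.46). Serpinb2 was the exception and fell from 11.7 to 5.49 FPKM (-0.96). Several of these genes are close copies that lie together on chromosome 13, so how their reads divide is uncertain. Aldehyde dehydrogenases had 7 of 14 called higher and none lower by Cuffdiff, also none at an unadjusted p below 0.05 in the authors' deposited table. Besides Aldh1l2 these included Aldh3a1, which clears lipid aldehydes (4.07 to 14.3 FPKM, 1.59), and the mitochondrial Aldh2 (242 to 387 FPKM, 0.67). Beyond the alpha class, the glutathione transferase Gstm1 rose from 22.1 to 38.1 FPKM (0.76) and Gsto1 from 155 to 214 (0.46), and Mgst3 fell from 66.4 to 58.7 (-0.18). The metal-binding proteins Mt1 (1148 to 1404 FPKM) and Mt2 (335 to 467) were both called higher.

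Car6 stood against its own family, in which 5 of 8 carbonic anhydrases were called lower. Car3, a muscle isoform, had 65.5, 17.4 and 12.0 FPKM in high glucose, low glucose and galactose, and Car2 had 5.39, 1.71 and 0.798. S100 calcium-binding genes had 6 of 10 called lower and none higher by Cuffdiff, also none higher at an unadjusted p below 0.05 in the authors' deposited table. S100a13 fell from 32.0 to 17.8 FPKM (-0.81) and S100a11 from 775 to 637 (-0.28). Regulators of G protein signalling had 6 of 9 called lower and 1 higher, with Rgs4 at 1.04 and 0.559 FPKM. Of 6 tested beta-tubulins 4 were called lower, led by Tubb2a (127 to 93.9 FPKM, -0.43), and none higher, with none higher at an unadjusted p below 0.05 in the authors' deposited Cuffdiff table.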
